A study of Arabidopsis thaliana with 27 samples.

Results

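The comparison described here sets callus of an Arabidopsis thaliana UPF1 mutant against wild-type callus after 6 days on shoot-inducing medium. Its members are the 6 arrays that the sample labels assign to those genotypes on that day, 3 per genotype, out of 27 arrays in the series. The mutant group is lba1-1/upf1-1 on day 6 (upf1-1 below) and the other group is the wild type on day 6, both in the Columbia (Col-0) ecotype. In both groups, hypocotyls of 12-day-old seedlings were kept for 6 days on callus-inducing medium, and the callus was then moved to shoot-inducing medium for 6 days. The remaining arrays hold both genotypes on days 0 and 3 of shoot-inducing medium and another genotype, the UPF3 mutant upf3-1. Their values are given only where named, but the scatter within groups of all 27 arrays enters each SE and p-value. The series asks which transcripts the upf mutations affect. Each mutant is represented by 1 allele, and the labels do not say whether the 3 RNAs of a group came from separate cultures. The p-values therefore reflect no more than the scatter within groups of the 27 arrays, which could be technical. Callus holds several cell types, and in such bulk RNA fewer cells of a type and less RNA per cell cannot be told apart.

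Nonsense-mediated mRNA decay (NMD) degrades transcripts on which a ribosome stops too early or too far from the end of the message. UPF1 is the RNA helicase at its centre, and UPF3 links it to the exon junction complexes that splicing leaves on a transcript. Transcripts with a premature stop codon are substrates, and so are many normal transcripts with an upstream open reading frame (uORF) or a long 3′ untranslated region, among them those of some NMD factors. The lba1 allele of UPF1 carries an amino acid substitution and is known as a partial loss of function. Shoot-inducing medium is rich in cytokinin, under which callus greens and later forms shoots.

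RNA was measured on Affymetrix ATH1 arrays. The deposited values are log2 signals made by the authors with RMA, which forces all arrays onto 1 distribution, so a shift common to most transcripts would be hidden. The 6 arrays were alike: correlations over all probe sets were 0.994 to 0.996 within upf1-1, 0.995 to 0.997 within the wild type and 0.984 to 0.992 between them, and 6 of 6 arrays were nearest to an array of their own group. The 3′ minus 5′ signal of control transcripts, which reports RNA integrity, was 0.66, 0.85 and 0.48 in upf1-1 against 0.61, 0.63 and 0.57 in the wild type. The mean of the poly-A spike-ins was 5.27, 5.07 and 5.09 in upf1-1 against 5.35, 5.26 and 5.0 in the wild type. UPF1 itself was not analysed here, so the mutation was not checked at its own transcript. Of genes known in callus formation, LBD16, which auxin induces in callus founder cells, had 6.40, 6.63 and 6.38 in upf1-1 against 6.39, 6.49 and 6.21 in the wild type, and the groups overlap.

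Of 13285 genes tested with limma, 2349 (17.7%) were called on day 6, meaning a Benjamini-Hochberg adjusted p under 0.05. Of these, 1388 (10.4% of the genes tested) were higher in upf1-1 and 961 (7.23%) were lower. Most called differences were under 2-fold. The median SE of a log2 fold change was 0.10, and a difference as small as 0.168 was called. At least 2-fold differences were called for 163 genes (1.23%), of which 114 (0.858%) were higher and 49 (0.369%) lower, so rises outnumbered falls in both counts. The 3 upf1-1 and 3 wild-type arrays did not overlap for 1324 of the genes called higher and 889 of those called lower. Over all genes, overlap or call aside, upf1-1 lay above the wild type in every array for 2066 genes (15.6%) and below it for 2001 (15.1%). The split depends on the scaling. It was 59.1% higher as deposited, 70.5% when each array was centred on 4 reference genes and 81.6% when centred on the poly-A spike-ins, where 895 genes were higher and 202 lower. Those centrings moved the median log2 fold change of all genes by less than 0.1, to 0.02 and 0.05, against -0.02 as deposited. With the 6 arrays fitted alone, 1495 genes were called, 500 of them lower.

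**Figure D1:**
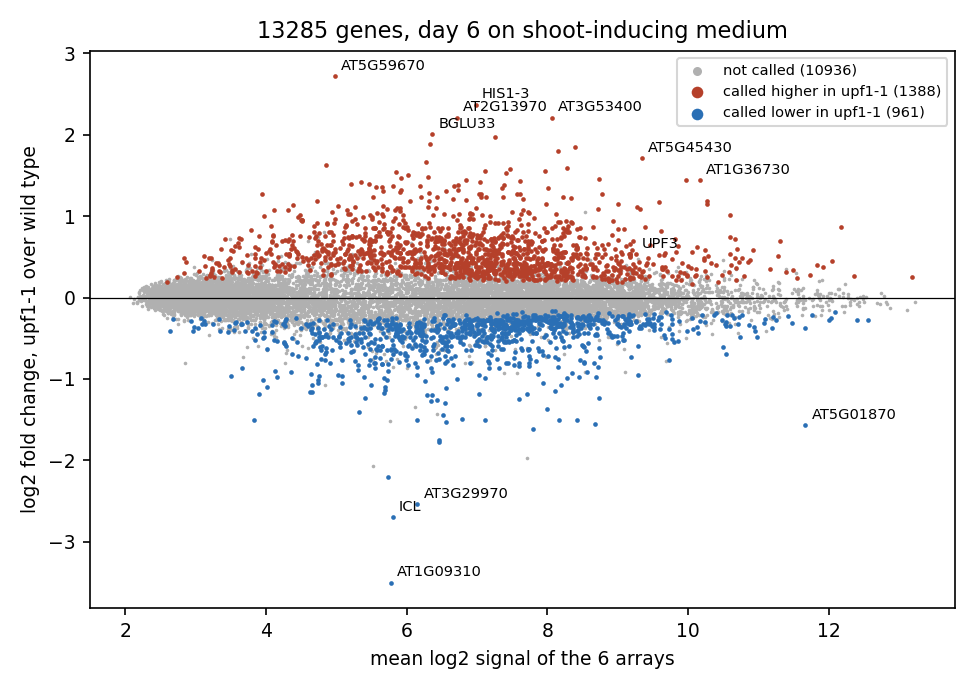
Log2 fold change of upf1-1 over wild type on day 6 (y axis) against the mean log2 signal of the 6 arrays (x axis), with each of 13285 genes as a point. The 1388 genes called higher reach a log2 fold change of 2.72 at AT5G59670, and the 961 called lower reach -3.50 at AT1G09310.

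Some NMD factors and reported NMD targets were higher in upf1-1, and 0 members of either list were called lower. UPF3, whose own transcript is under NMD control, had log2 signals of 9.54, 9.45 and 9.57 in upf1-1 replicates 1 to 3 and 9.0, 9.0 and 8.98 in wild-type replicates 1 to 3, the order used throughout. Every upf1-1 array was above every wild-type array, by 0.53 on the log2 scale or 1.44-fold (SE 0.10, adjusted p = 0.000267). Of 10 NMD and exon junction factors, 5 were measured, and 2 were called higher (40%, against 10.4% of all genes) and 0 lower. The other was AT1G80000, which had 7.35, 7.34 and 7.34 in upf1-1 against 7.06, 7.01 and 6.93 in the wild type (log2 fold change 0.34, adjusted p = 0.000205), a call lost with spike-in centring (adjusted p = 0.0805). Y14, a core exon junction protein, was at 9.99, 9.99 and 9.95 in upf1-1 against 9.93, 10.05 and 10.02 in the wild type, and overlapped.

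Of 15 genes reported as NMD targets in plants, 8 were measured, and 5 were called higher and 0 lower, against 10.4% and 7.23% of all genes. Their median log2 fold change was 0.55, beside -0.02 over all genes tested. UPF3 is on this list too. This list and the uORF list below were chosen with earlier results of these data known, so their counts are not independent support. AT5G45430 had 10.23, 10.20 and 10.18 in upf1-1 against 8.53, 8.59 and 8.34 in the wild type, a 1.71 higher log2 signal (SE 0.09, adjusted p = 9.17e-13). AT1G36730 had 10.84, 11.06 and 10.78 in upf1-1 against 9.48, 9.39 and 9.48 in the wild type, which is 1.44 higher (SE 0.07, adjusted p = 9.17e-13). For both, the gap between the groups was several times the spread within them. AT2G45670 and AT3G63340 rose less, by 0.77 and 0.56 on the log2 scale. The 3 without a call were AT3G47560 at 0.28, the transcribed pseudogene AT5G40920 at 0.28 and bHLH34, a transcription factor gene, at -0.27.

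Genes whose transcripts carry a conserved uORF, a short reading frame that a ribosome meets before the main one, gave a like picture. Of 42 listed, 21 were measured, and 10 were called higher (47.6%, against 10.4% of all genes) and 0 lower. A positive log2 fold change was found for 19 of 21, against 6182 of all 13285 genes, and their median was 0.25. SAMDC encodes S-adenosylmethionine decarboxylase, which makes the aminopropyl donor for polyamines and is translated under the control of its uORFs. Among the brightest genes on the arrays, it had 12.35, 12.86 and 12.59 in upf1-1 against 11.73, 11.68 and 11.79 in the wild type (0.87 higher, SE 0.09, adjusted p = 1.14e-07). The largest difference of the list was at AT1G70780, with 10.51, 10.77 and 10.79 in upf1-1 against 9.26, 9.17 and 9.32 in the wild type (1.44 higher, SE 0.11, adjusted p = 1.36e-09). AT5G09460 was 1.19 higher, AT4G19110 1.17, AT1G73600 1.04 and AT5G15950 1.02, and in each the 3 upf1-1 arrays lay above the 3 wild-type arrays. The list is not uniform. PMEAMT, a phosphoethanolamine methyltransferase of phosphocholine synthesis, had 9.20, 9.31 and 9.26 in upf1-1 against 8.93, 9.10 and 9.17 in the wild type, without a call (0.19, adjusted p = 0.159). The transcription factor genes BZIP53 (-0.06) and bZIP44 (0.10), whose uORFs respond to sucrose, showed overlapping arrays, as did AT5G50010 (-0.08). CPUORF47, whose symbol itself denotes a conserved upstream peptide, is not on the list and was picked as 1 of the 10 largest rises. It had 7.11, 7.26 and 7.47 in upf1-1 against 4.80, 5.73 and 5.65 in the wild type, 1.89 higher (SE 0.16, adjusted p = 4.71e-09).

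**Figure D2:**
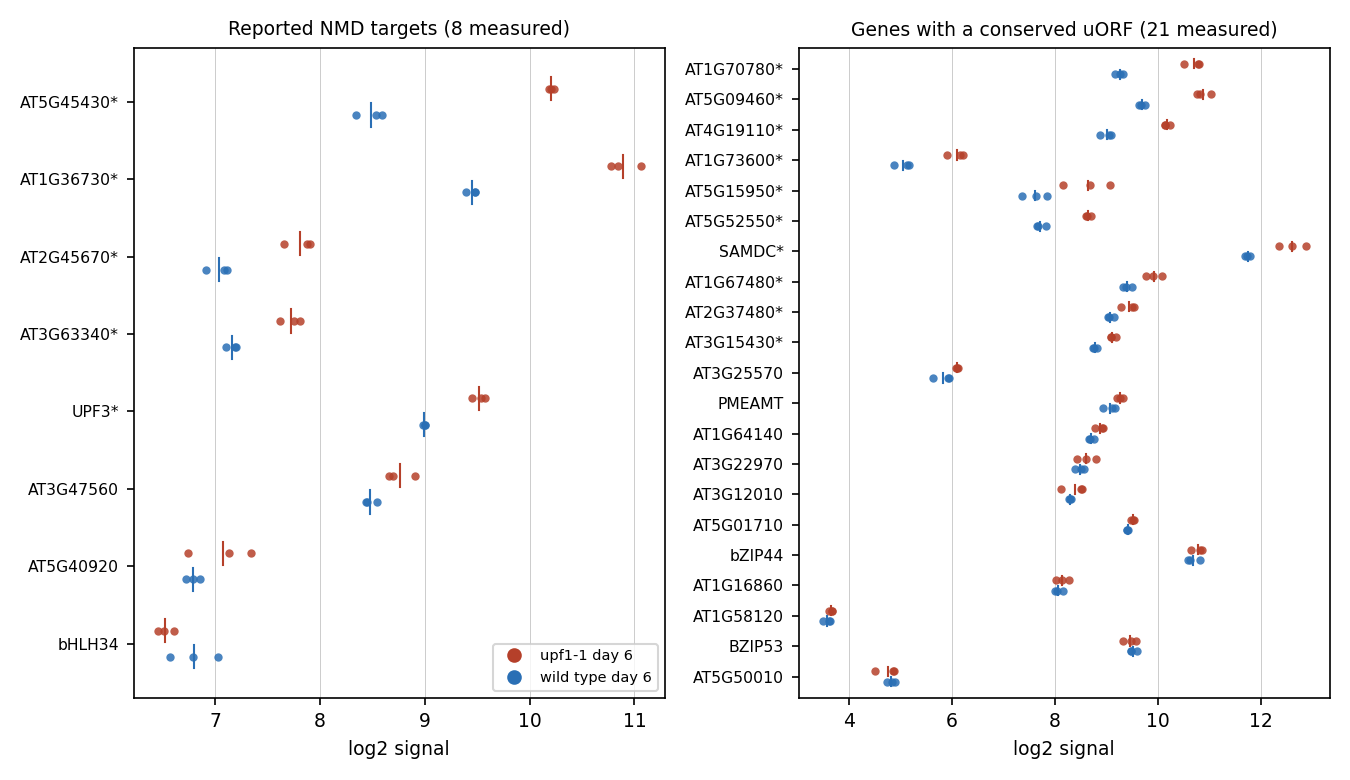
Log2 signal (x axis) of each array for 8 reported NMD targets and 21 uORF genes, ordered by log2 fold change, with upf1-1 above and wild type below in each row, short lines at the group means and an asterisk at called genes. The upper rows show a clear gap between the groups, as at AT5G45430 (1.71) and AT1G70780 (1.44), and the lowest rows overlap, as at BZIP53.

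The gene with the largest rise was AT5G59670, with 6.5, 6.26 and 6.26 in upf1-1 against 3.78, 3.70 and 3.37 in the wild type, which is 6.61-fold (log2 fold change 2.72, SE 0.21, adjusted p = 1.99e-09). HIS1-3, a linker histone variant induced by drought and abscisic acid, followed with 7.79, 8.28 and 8.43 in upf1-1 against 4.61, 5.99 and 6.79 in the wild type (2.37 higher, SE 0.39, adjusted p = 0.000108). Its groups do not overlap, but its wild-type arrays spread over more than 2 log2 units. By contrast, AT3G53400 was at 9.13, 9.19 and 9.18 in upf1-1 against 6.81, 6.94 and 7.11 in the wild type, 2.21 higher with an SE of 0.08. BGLU33, a member of the beta-glucosidase family, had 7.75, 7.55 and 6.82 in upf1-1 against 4.69, 6.02 and 5.37 in the wild type, 2.01 higher with an SE of 0.39. Also among the 10 largest rises were AT4G15260 (1.97), AT5G08360 (1.85) and AT1G70790 (1.80), whose group means were several times their SEs apart, along with AT2G13970, CPUORF47 and AT5G45430, described elsewhere.

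The falls reached further. AT1G09310 was at 3.82, 3.67 and 4.58 in upf1-1 against 7.85, 7.37 and 7.35 in the wild type, 3.50 lower on the log2 scale (log2 fold change -3.50, SE 0.31, adjusted p = 1.2e-08). ICL, isocitrate lyase of the glyoxylate cycle, by which seedlings turn stored lipid into sugar, had 4.33, 4.55 and 4.47 in upf1-1 against 7.88, 6.61 and 6.95 in the wild type, which leaves it at 15.4% of the wild-type level (log2 fold change -2.70, SE 0.28, adjusted p = 1.57e-07). AT3G29970 was at 4.81, 4.52 and 5.31 in upf1-1 against 7.57, 6.46 and 8.24 in the wild type (-2.54, SE 0.37). In these 3 genes every upf1-1 array lay more than 1 log2 unit below every wild-type array. ICL was 1 of 2 measured genes listed for lipid mobilisation and the glyoxylate cycle, and the other, at 0.03, was not called. AT2G16005 (-2.20, SE 0.61, adjusted p = 0.0134) also fell, but lost its call without upf1-1 replicate 1 (adjusted p = 0.0732) or without wild-type replicate 3 (adjusted p = 0.0809). AT2G25510 (-1.78), AT2G05540 (-1.75), AT5G12110 (-1.62), AT5G05960 (-1.55) and AT3G16370 (-1.53) kept theirs without each array in turn.

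One of the brightest genes fell strongly as well: AT5G01870 had 10.65, 10.94 and 11.05 in upf1-1 against 12.61, 12.24 and 12.50 in the wild type (-1.57, SE 0.14, adjusted p = 9.36e-09). Among other genes with a mean of at least 10 in either group, the largest falls were AT5G44400 (-0.77), ATLP-1, a thaumatin-like protein (-0.69), AT1G75280 (-0.61) and AT2G01610 (-0.55). The call of AT2G01610 was lost with spike-in centring (adjusted p = 0.109). The 5 largest rises at that brightness, AT5G45430, AT1G70780, AT1G36730, AT5G09460 and AT4G19110, were all members of the NMD target and uORF lists. Those lists were chosen with earlier results of these data known, so the match is not independent support.

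**Figure D3:**
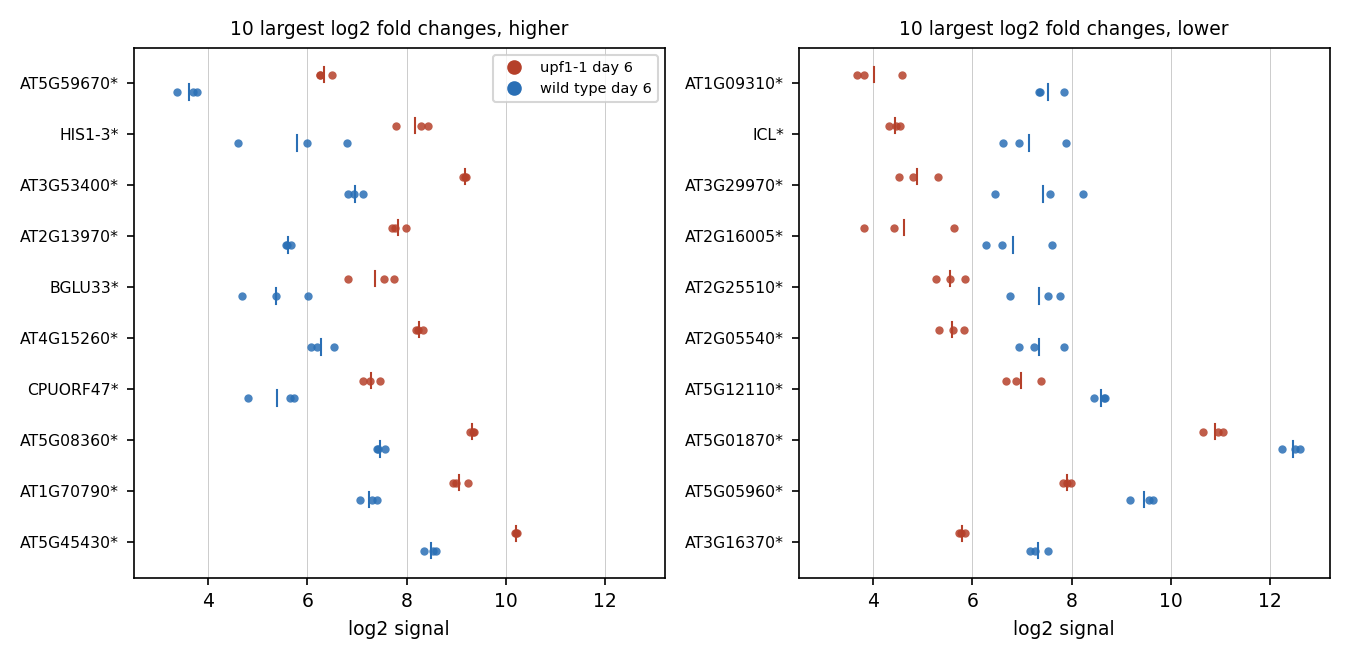
Log2 signal (x axis) of each array for the 10 genes with the largest rise (left) and the 10 with the largest fall (right) among called genes whose groups do not overlap, with upf1-1 above and wild type below in each row, short lines at the means and asterisks at called genes. AT3G53400 and AT5G45430 have tight groups, and HIS1-3 and AT2G16005 have wide ones.

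Pseudogenes often carry disabling stop codons, which makes their transcripts candidates for NMD. On the arrays 989 loci annotated as pseudogenes were measured, out of 4851, with a mean log2 signal of 3.31 in upf1-1 and 3.31 in the wild type, near the dim end. Of these, 23 (2.33%) were called higher and 19 (1.92%) lower, below the share of all genes, and their median log2 fold change was 0.00. Without single arrays 13 to 27 were called higher and 8 to 32 lower, and without upf1-1 replicate 1 the lower ones (32) outnumbered the higher (27). The other moves of over 1.5 times were 14 higher and 8 lower without upf1-1 replicate 2, 13 and 12 without wild-type replicate 1, and 14 and 12 without wild-type replicate 3. Dim genes were called rarely in general: of 5103 genes with a mean under 5 in both groups, 213 were called. The largest pseudogene differences were rises. AT2G13970 had 7.77, 7.98 and 7.71 in upf1-1 against 5.58, 5.67 and 5.57 in the wild type, 2.21 higher with an SE of 0.09 (adjusted p = 2.31e-14). AT3G21020 was 1.40 higher, AT5G04880 1.38, AT4G08110 1.1 and AT1G34330 1.01, while the largest fall, at AT1G63040, was 0.94 (log2 fold change -0.94). AT5G04880 is annotated as a transcribed pseudogene. With the 6 arrays fitted alone, 13 were called higher and 9 lower, and with spike-in centring 13 and 3.

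Most measured photosynthesis genes were higher in upf1-1. Of 76 listed nuclear genes, 10 were measured, and 9 were called higher (90%, against 10.4% of all genes) and 0 lower. Their median log2 fold change was 0.62. PRK, phosphoribulokinase, which regenerates the carbon dioxide acceptor of the Calvin cycle, had 7.38, 7.51 and 7.28 in upf1-1 against 5.73, 6.23 and 6.25 in the wild type (1.32 higher, SE 0.18, adjusted p = 9.58e-06). RCA, which encodes the activase that keeps Rubisco working, had 9.85, 9.73 and 9.76 in upf1-1 against 9.0, 9.18 and 9.23 in the wild type (0.64 higher, adjusted p = 0.00113). In both, the lowest upf1-1 array was above the highest wild-type array. All 3 genes of the CP29 antenna protein of photosystem II were called: LHCB4.2 was 0.78 higher, LHCB4.3 0.75 and LHCB4.1 0.50. The photosystem II subunit genes PSBW (0.77) and PSBY (0.60), the chlorophyll synthesis gene PORB (0.54) and CHLI2 (0.39), for a subunit of magnesium chelatase, were higher too. SBPASE, sedoheptulose-bisphosphatase of the Calvin cycle, was the exception, with 7.15, 6.26 and 7.30 in upf1-1 against 5.99, 6.68 and 6.59 in the wild type (0.48, adjusted p = 0.16). The mean of the 10 genes was 7.92, 7.83 and 7.85 in upf1-1 against 6.92, 7.32 and 7.32 in the wild type, so wild-type replicate 1 was lowest. Without it, 7 of the 10 were called.

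A minority of the genes encoded in the plastid genome were called, in the same direction and by less. Of 84 listed, 69 were measured, and 19 were called higher (27.5%, against 10.4% of all genes) and 0 lower. A positive log2 fold change was found for 58 of 69, against 6182 of all 13285 genes, and the median was 0.23. Plastid ribosomal protein genes held 7 of the 19 calls, from 15 measured, among them rps16 (0.55) and rps19 (0.54). The NDH complex, which carries electrons around photosystem I, had 4 of 10 called, with ndhK at 0.56, ndhA at 0.54 and ndhD at 0.54. Photosystem II genes had 3 of 15, photosystem I genes 1 of 5, ATP synthase genes 2 of 6 and cytochrome b6f genes 1 of 6. The photosystem I subunit gene psaJ had 7.27, 7.24 and 7.46 in upf1-1 against 6.72, 6.86 and 6.63 in the wild type (0.59 higher, SE 0.13, adjusted p = 0.00219). By contrast rbcL, the large subunit of Rubisco, had 8.22, 7.87 and 8.22 in upf1-1 against 8.18, 8.23 and 8.26 in the wild type, and 0 of 4 genes of the plastid RNA polymerase were called by limma, of which the largest log2 fold change was 0.18. The count rests on few arrays: 10 genes were called without wild-type replicate 1, 11 without upf1-1 replicate 1, 12 without wild-type replicate 3 and 11 with the 6 arrays fitted alone. Calls of ndhK (adjusted p = 0.0516 without upf1-1 replicate 1), ndhA (0.0957 without wild-type replicate 3, 0.0571 without wild-type replicate 1 and 0.055 without upf1-1 replicate 2) and rps16 (0.108 without wild-type replicate 1, 0.0704 without wild-type replicate 3, 0.0543 and 0.0539 without upf1-1 replicates 1 and 3) were among those lost. The mean of the 69 genes was 7.90, 7.62 and 7.75 in upf1-1 against 7.52, 7.65 and 7.47 in the wild type, so upf1-1 replicate 2, which had the highest 3′ minus 5′ signal, lay between wild-type arrays. The part of that signal in the result was not tested.

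Pentatricopeptide repeat (PPR) proteins are made in the nucleus and process organelle transcripts. Of 14 measured from a list of named organelle factors, 3 were called higher (21.4%, against 10.4% of all genes) and 1 lower (7.14%, near the 7.23% of all genes). OTP70, needed for splicing of a plastid transcript, had 6.25, 6.29 and 6.26 in upf1-1 against 5.21, 5.47 and 5.30 in the wild type (0.94 higher, SE 0.12, adjusted p = 4.1e-06). CRR28, an editing factor for NDH transcripts, was 0.49 higher (adjusted p = 0.000541). The smaller differences of CRR21, also an editing factor (0.35), and MEF8S (-0.31) were called in the fit of all arrays but lost without single arrays: CRR21 without any array but upf1-1 replicate 3 (adjusted p 0.0592 to 0.12), and MEF8S without upf1-1 replicates 1 and 3 and wild-type replicates 2 and 3 (0.0573 to 0.099).

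Markers of shoot formation had no call beside the photosynthesis genes. Of 30 shoot meristem and leaf primordium genes, 4 were measured and limma called 0, with 0 at an unadjusted p under 0.05. PHV, which sets the upper leaf side, had 10.54, 10.43 and 10.40 in upf1-1 against 10.40, 10.53 and 10.37 in the wild type. The stem cell peptide gene CLV3 was dim, at 3.38, 3.68 and 3.55 in upf1-1 against 3.39, 3.50 and 4.01 in the wild type, and LAS, a regulator of axillary meristems, and YAB3, a leaf polarity gene, differed by -0.23 and -0.09. All 4 measured genes of the stomatal lineage, SPCH, MUTE, FMA (FAMA) and STOMAGEN, were dim, with a mean over the list of 3.04, 2.92 and 3.09 in upf1-1 against 3.04, 3.06 and 3.04 in the wild type, and 0 were called (0 at an unadjusted p under 0.05). Cytokinin response genes were represented by RR16 (0.15) and ARR15 (-0.07), response regulators that cytokinin induces, with overlapping arrays and 0 calls by limma (0 at an unadjusted p under 0.05).

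The auxin response genes called on day 6 were lower: of 14 measured from 122 listed, 0 were called higher and 4 lower. That is 28.6% lower, against 7.23% of all genes. The median was -0.11, and 6 of the 14 had a positive log2 fold change. On day 0, 1 was called higher and 0 lower, and on day 3, 2 higher and 2 lower. GH3 enzymes join auxin to amino acids and their genes are induced by auxin. GH3.1 had 5.21, 5.13 and 4.94 in upf1-1 against 6.37, 6.22 and 6.20 in the wild type (-1.17, SE 0.21, adjusted p = 0.000309). IAA18, a repressor of auxin response, had 6.06, 5.79 and 6.24 in upf1-1 against 7.0, 6.71 and 6.68 in the wild type (-0.77, SE 0.12, adjusted p = 7.18e-05). In both genes the 3 upf1-1 arrays lay below the 3 wild-type arrays. GH3.3 (-0.49) lost its call without upf1-1 replicate 2 (adjusted p = 0.123) or wild-type replicate 1 (0.109), and WES1, which is GH3.5 (-0.39), without upf1-1 replicates 1 and 2 and wild-type replicates 1 and 2 (0.0573 to 0.258). With spike-in centring 2 of the 4 stayed called. Of 4 measured YUC genes, for the enzymes that complete auxin synthesis, YUC4 fell, at 3.33, 3.19 and 3.16 in upf1-1 against 4.07, 4.17 and 4.02 in the wild type (-0.86, SE 0.17, adjusted p = 0.000881). The other 10 auxin response genes measured, LBD29 (0.28) among them, were not called.

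Of 4 root genes measured from 23, 1 was called lower (25%, against 7.23% of all genes). EXPA7, an expansin gene of root hairs, had 6.83, 7.06 and 7.28 in upf1-1 against 7.42, 7.65 and 8.0 in the wild type (-0.63, adjusted p = 0.014), and lost its call without upf1-1 replicate 1 (0.0733) or wild-type replicate 3 (0.102). Its relative EXPA18 differed by -0.38 without a call. Among 6 measured cell division genes, 1 was called lower (16.7%, against 7.23% of all genes). It was AUR3, a mitotic kinase, at -0.31, lost without upf1-1 replicates 1 or 2 or wild-type replicates 2 or 3 (adjusted p 0.108 to 0.162). PRL, a replication licensing factor, differed by -0.19 and the cytokinesis kinesin gene KINESIN-12B by -0.38, without calls. The core histone genes HTB2 (-0.31) and HTB11 (-0.30) were called lower, but HTB2 lost its call without upf1-1 replicate 2 (0.204), wild-type replicate 2 (0.149) or wild-type replicate 3 (0.0686), and HTB11 without any 1 of the 6 arrays (0.0647 to 0.162). With either centring, and with the 6 arrays alone, neither was called.

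Some genes for wall loosening and for remodelling xyloglucan were lower. Of 9 XTH genes measured, 0 were called higher and 4 lower (44.4%, against 7.23% of all genes). XTH20 had 8.04, 8.21 and 8.39 in upf1-1 against 8.81, 8.92 and 8.69 in the wild type (-0.59, SE 0.13, adjusted p = 0.00197), and XTH16 differed by -0.56 (adjusted p = 0.00508), without a call under spike-in centring (0.0892). XTH19 (-0.93) lost its call without upf1-1 replicates 1 or 2 or wild-type replicates 2 or 3 (adjusted p 0.0523 to 0.0876), and XTH32 (-0.52) without upf1-1 replicates 1 or 3 or wild-type replicate 2 (0.106 to 0.258). With spike-in centring, 2 of the 4 stayed called. Expansins move wall polymers apart without cutting them. Of 14 measured, 0 were called higher and 2 lower (14.3%, against 7.23% of all genes). EXPA8 had 7.34, 7.61 and 8.0 in upf1-1 against 8.51, 8.85 and 8.84 in the wild type (-1.08, SE 0.17, adjusted p = 7.18e-05), and the other was EXPA7, without a call under spike-in centring (0.106). The groups of EXPA8 and XTH20 do not overlap.

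Of 22 TBL genes, a family that acetylates wall polysaccharides, 3 were called higher and 3 lower (13.6% each), near the 10.4% and 7.23% of all genes. TBL32 was at 8.29, 8.55 and 7.95 in upf1-1 against 7.01, 7.14 and 7.01 in the wild type (1.21, SE 0.10, adjusted p = 8.21e-09), on a probe set marked for possible cross-hybridisation. TBL21 was at 5.16, 5.0 and 5.68 in upf1-1 against 6.03, 6.13 and 6.40 in the wild type (-0.90, adjusted p = 0.000985), TBL38 fell by 0.74 (log2 fold change -0.74), and TBL34 (-0.81) lost its call without wild-type replicate 2 (adjusted p = 0.0587). Of 15 GH9 endoglucanase genes, 2 were called higher and 2 lower (13.3% each), also near those shares. GH9B13, among the brightest of them, was at 11.82, 11.65 and 11.47 in upf1-1 against 10.87, 11.06 and 10.95 in the wild type (0.69, SE 0.13, adjusted p = 0.000375). GH9B6 (0.52), GH9C1 (-0.53) and GH9B7 (-0.26) each lost the call without at least 3 of the 6 arrays: GH9B6 without wild-type replicate 1 or any upf1-1 replicate (0.0723 to 0.354), GH9C1 without upf1-1 replicate 1 or wild-type replicates 2 or 3 (0.0786 to 0.246), and GH9B7 without upf1-1 replicates 1 or 2 or wild-type replicates 2 or 3 (0.0526 to 0.109).

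Of 25 listed abscisic acid and dehydration genes, only 5 were measured, and 3 were called higher (60%, against 10.4% of all genes) and 0 lower. HIS1-3 led them. APL3, a subunit of the enzyme that commits glucose to starch and is induced by sugar and abscisic acid, had 5.55, 5.72 and 5.84 in upf1-1 against 5.19, 5.47 and 4.79 in the wild type (0.55, adjusted p = 0.0113). COR47, a dehydrin, had 8.95, 8.75 and 8.95 in upf1-1 against 8.49, 8.54 and 8.6 in the wild type (0.34, adjusted p = 0.0228). Both calls depend on single arrays, APL3 on upf1-1 replicate 3 (0.0543 without it) and wild-type replicate 3 (0.105), and COR47 on upf1-1 replicates 1 and 3 and wild-type replicates 1 and 2 (0.0567 to 0.0821). The cold-regulated genes COR15A and COR15B were dim and not called.

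Of 8 aldehyde dehydrogenase (ALDH) genes measured, 2 were called higher (25%, against 10.4% of all genes) and 1 lower (12.5%, against 7.23%). ALDH11A3, the non-phosphorylating glyceraldehyde-3-phosphate dehydrogenase, had 6.36, 6.25 and 6.36 in upf1-1 against 4.63, 5.16 and 5.26 in the wild type (1.31, SE 0.17, adjusted p = 3.1e-06). ALDH3F1, an aldehyde dehydrogenase, had 5.88, 5.89 and 6.24 in upf1-1 against 7.21, 7.01 and 7.10 in the wild type (-1.11, SE 0.13, adjusted p = 9.77e-07). In neither gene do the groups overlap. A further member, ALDH6B2 (0.22, adjusted p = 0.0485), was the weakest of the 3 and lost its call without each array except upf1-1 replicate 2 (0.0522 to 0.165). Of 14 SWEET sugar transporters, 1 was called lower (7.14%, near the 7.23% of all genes). It was SWEET4 (-0.69, adjusted p = 0.00302), a call lost with spike-in centring (0.0606). Of 8 autophagy genes, ATG8G (-0.37) and ATG8H (-0.35), ubiquitin-like proteins of the autophagosome membrane, were called lower (25%, against 7.23% of all genes). ATG8G lost the call without upf1-1 replicate 2 (0.118) and ATG8H without upf1-1 replicates 1 or 2 or wild-type replicates 1 or 3 (0.0572 to 0.162). With spike-in centring neither was called.

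Beta-glucosidases, which release aglycones from sugar conjugates, held large changes in both directions. Of 20 measured, 6 were called higher (30%, against 10.4% of all genes) and 2 lower (10%, near the 7.23% of all genes). After BGLU33, BGLU16 was at 8.41, 8.40 and 8.49 in upf1-1 against 7.72, 7.55 and 7.87 in the wild type (0.72, SE 0.10, adjusted p = 1.08e-05). BGLU24 was at 4.91, 4.04 and 5.42 in upf1-1 against 5.96, 6.18 and 5.96 in the wild type (-1.24, SE 0.24, adjusted p = 0.000674), and BGLU31 at 3.63, 3.25 and 4.13 in upf1-1 against 5.34, 4.41 and 4.21 in the wild type (-0.98, adjusted p = 0.00212), a call lost with the 6 arrays alone (0.0737). The remaining rises, BGLU29, BGLU40, BGLU43 and BGLU45, lay between 0.54 and 0.72. UDP-glycosyltransferases do the reverse and attach sugars to small molecules. Of 47 measured, 2 were called higher (4.26%, against 10.4% of all genes) and 6 lower (12.8%, against 7.23%), and the median was -0.10. UGT71B1 was at 7.61, 7.68 and 7.48 in upf1-1 against 8.31, 8.26 and 8.17 in the wild type (-0.66, SE 0.10, adjusted p = 3.38e-05), and UGT73B4 at -0.54 (adjusted p = 0.000851). UGT76D1 (-0.60) lost its call without upf1-1 replicate 1 (0.0577) or wild-type replicate 3 (0.0624), and UGT74F1 (0.53) without wild-type replicate 1 (0.057). With spike-in centring, 2 of the 6 lower calls were left.

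Defence genes were few on the list and mostly uncalled. Neither of the measured salicylic acid genes, WRKY53 (0.18) and SAG101 (-0.28), nor of the jasmonate genes, PDF1.2 (-0.16) and JMT (0.11), was called by limma (unadjusted p under 0.05 in 0 of 4). CHI, a chitinase gene, had 7.14, 6.74 and 7.04 in upf1-1 against 8.85, 7.79 and 8.05 in the wild type (-1.25, SE 0.42, adjusted p = 0.0406), a call lost without any array but wild-type replicate 2 (0.0608 to 0.197). WRKY6 (-0.43) and WRKY22 (-0.33), transcription factor genes of senescence and defence, were called lower among 6 measured (33.3%, against 7.23% of all genes). WRKY6 lost the call without upf1-1 replicate 2 or wild-type replicates 1 or 3 (0.0524 to 0.215) and WRKY22 without upf1-1 replicate 3 (0.0805) or wild-type replicate 1 (0.0843). Neither was called with spike-in centring or with the 6 arrays alone. Of enzymes that handle foreign compounds, CYP71B28 was 0.66 higher (adjusted p = 0.00306), the only call among 26 cytochrome P450 genes (3.85%, against 10.4% of all genes called higher). The glutathione transferase gene GSTF4 was 0.61 higher (adjusted p = 0.00292). GSTU22 (-0.38) and GSTU28 (-0.32) were called lower but lost the call without 5 and 3 single arrays, at adjusted p of 0.0541 to 0.198 and 0.0717 to 0.296.

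**Figure D4:**
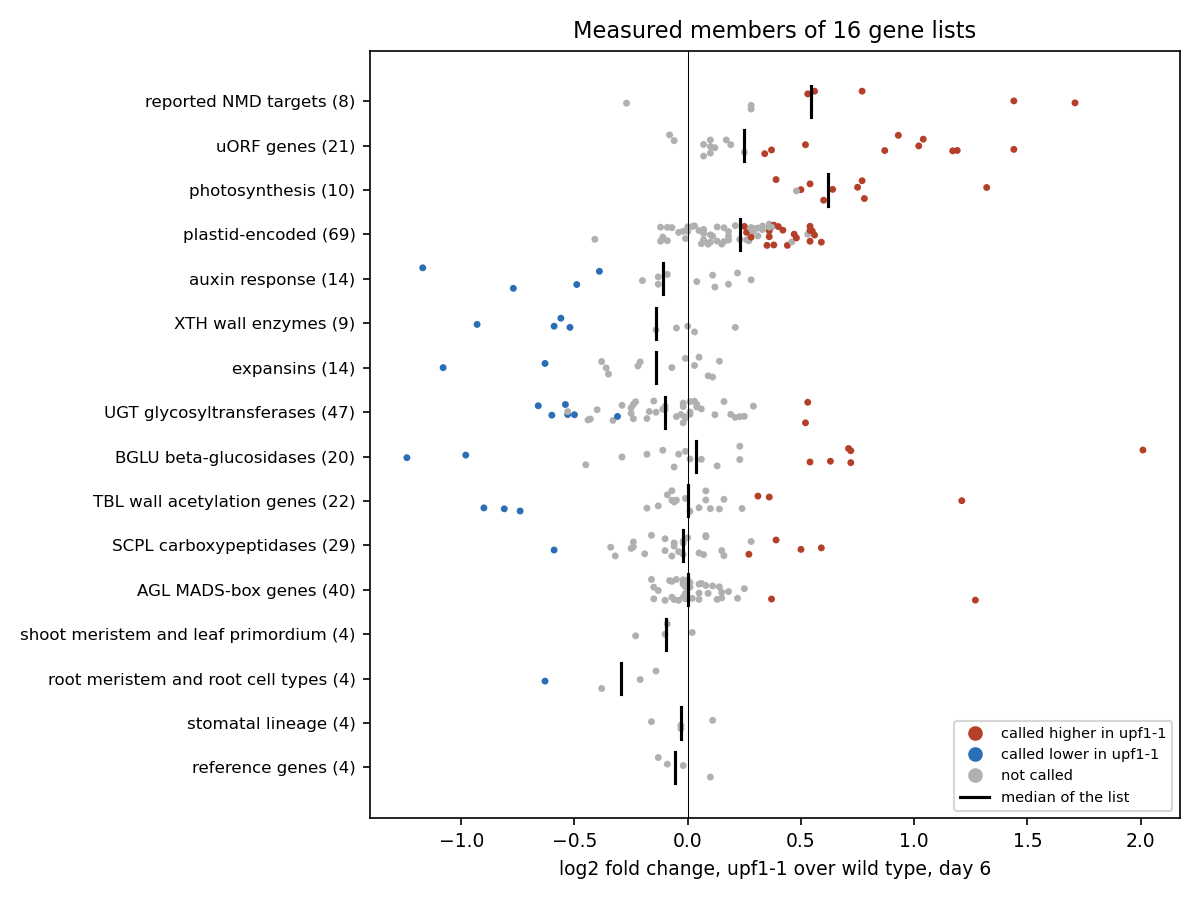
Log2 fold change of upf1-1 over wild type on day 6 (x axis) for each measured member of 16 gene lists (rows, with the number measured), with black bars at the list medians and the vertical line at 0. Photosynthesis (median 0.62), reported NMD targets (0.55) and uORF genes (0.25) lie to the right, and the called members of the XTH, expansin and auxin lists lie to the left.

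Several families held 1 or a few clear members. AGL62, a MADS-box gene known from the endosperm, had 4.46, 4.75 and 4.53 in upf1-1 against 3.55, 3.08 and 3.30 in the wild type (1.27, SE 0.13, adjusted p = 9.95e-08), and was 1 of 2 called among 40 MADS-box genes. AGL30 (0.37) lost its call without upf1-1 replicate 1 (0.0943), wild-type replicate 1 (0.0639) or wild-type replicate 3 (0.078). Of 7 glutamate receptor-like channel genes, 3 were called higher (42.9%, against 10.4% of all genes) and 1 lower (14.3%, against 7.23%). GLR1.4 was at 6.33, 6.15 and 6.23 in upf1-1 against 5.09, 4.88 and 4.68 in the wild type (1.36, SE 0.12, adjusted p = 1.67e-08). GLR3.6 rose by 0.37 and GLR3.3 by 0.31. Neither was called under spike-in centring (0.0596 and 0.126), nor was GLR3.3 with the 6 arrays alone (0.0866). GLR2.7 (-0.40) lost its call without upf1-1 replicate 1 (0.0723) or wild-type replicate 1 (0.161). The subtilase genes SBT3.5 (0.95, adjusted p = 3.84e-05) and SBTI1.1 (-0.76, adjusted p = 0.00329) went opposite ways, and SBT4.12 (0.49) lost its call without upf1-1 replicates 2 or 3 or wild-type replicates 1 or 2 (0.0644 to 0.144).

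Of 29 serine carboxypeptidase-like genes, 4 were called higher and 1 lower. Among them scpl40 (0.59) and scpl50 (0.50) rose and scpl25 (-0.59) fell, while scpl28 (0.39) lost its call without any array but wild-type replicate 3 (0.0517 to 0.174). Chromatin remodelling ATPases held 2 called falls among 7 (28.6%, against 7.23% of all genes). These were CHR23 at -0.64 (adjusted p = 0.000316) and CHR17 at -0.32, which was lost without upf1-1 replicate 2 (0.352) or wild-type replicates 1 (0.128) or 2 (0.113). Of 7 measured CML calcium sensor genes, CML30 (0.38) was called higher and CML38 (-0.80) lower. Only 2 of the 7 had a positive log2 fold change, and the median was -0.33. In 4 every upf1-1 array lay below every wild-type array, beside 2001 of all 13285 genes. CML30 lost its call with the 6 arrays alone (0.0504) or spike-in centring (0.0943), and CML38 without upf1-1 replicate 2 (0.0727) or wild-type replicate 3 (0.0868). RALFL34, a signalling peptide gene, was at -0.42 (0.0615 without wild-type replicate 3). Calls of RALFL24 (0.30) and of the trafficking genes VPS9B (0.34) and SEC15A (-0.22) were lost without 4 single arrays each, at adjusted p of up to 0.252. Limma called 0 of 7 tubulin genes (2 at an unadjusted p under 0.05), 0 of 15 tetraspanin genes (3), 0 of 13 defensin-like genes (2), 0 of 14 bZIP genes (1), 0 of 5 CLE peptide genes (1), 0 of 4 flavonoid genes (1) and 0 of 4 reference genes (0). Among 117 named genes called on day 6, 77 kept the call without each array in turn and 40 lost it without at least 1. Of the 117, 37 lost the call with spike-in centring and 26 with the 6 arrays alone. Among all 150 named genes, 0 changed sign with a call.

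On earlier days, measured on other arrays, upf1-1 also differed from the wild type. The day 0 arrays gave 2271 calls (17.1% of the genes tested), 1230 of them higher (9.26%) and 1041 lower (7.84%). The day 3 arrays gave 2281 (17.2%), with 1309 higher (9.85%) and 972 lower (7.32%). Of the 1388 genes higher on day 6, 886 were also higher on day 0 (63.8% of the day 6 list and 72% of the day 0 list) and 1004 on day 3 (72.3% and 76.7%). Of the 961 lower on day 6, 363 were also lower on day 0 (37.8% of the day 6 list and 34.9% of the day 0 list) and 449 on day 3 (46.7% and 46.2%). Called on neither earlier day were 274 of the higher genes (19.7%) and 370 of the lower (38.5%). Among genes with at least 2-fold differences, 108 of 114 higher genes and 11 of 49 lower genes were called the same way on both earlier days. PRK was 1.32 higher on day 6, 1.67 on day 0 and 2.06 on day 3, and AT5G45430 was 1.71, 1.56 and 1.62 higher. GH3.1 differed by -1.17 on day 6 with a call, by -0.14 on day 0 and by -1.43 on day 3, and AT5G01870 by -1.57, -0.30 and -0.75.

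The difference between the days was tested as such. The mutant effect on day 6 differed from that on day 0 at 60 genes (0.452%), 31 with a higher (0.233%) and 29 with a lower (0.218%) effect on day 6. Against day 3, limma called 0 genes, with 794 at an unadjusted p under 0.05, and 0 with the groups of the contrast alone. Leaving out single arrays gave 30 genes for day 0 without wild-type day 6 replicate 3 or without upf1-1 day 0 replicate 1, and 34 without upf1-1 day 6 replicate 1. For day 3 they gave 1 gene without wild-type day 3 replicate 2 or 3 and 10 without upf1-1 day 6 replicate 1. The largest shift was at AT1G09310, where the effect was -3.50 on day 6 against -0.89 on day 0, a difference of -2.61. ICL shifted by -1.97 (-2.70 on day 6 against -0.73 on day 0), AT3G29970 by -2.40 (-2.54 against -0.14), AT5G47550 by -1.76 (-1.15 against 0.60) and AT1G10640, which had no call on day 6, by -2.29 (-0.85 against 1.44). AT1G09310 kept this call without each array. AT3G29970 lost it without any of 9 of the 12 arrays (adjusted p 0.0603 to 0.119), ICL without wild-type day 0 replicate 2, upf1-1 day 0 replicates 1 and 3 or upf1-1 day 6 replicate 1 (0.0536 to 0.0603), AT1G10640 without wild-type day 0 replicate 2, wild-type day 6 replicate 3 or upf1-1 day 6 replicate 1 (0.0504 to 0.0625), and AT5G47550 without wild-type day 6 replicate 3 (0.0599) or upf1-1 day 6 replicate 1 (0.0525).

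In the opposite direction, AT1G23160 shifted by 2.07, with an effect of 0.37 on day 6 against -1.70 on day 0, AT1G25230 by 1.60 (1.34 on day 6 against -0.27), AT2G43140 by 1.49 (-0.37 against -1.86) and AT5G10210 by 1.44 (1.00 against -0.43). These 4 kept the call without each array. SBT1.3, a subtilase gene, shifted by 1.39 (-0.48 against -1.87) and lost the call without any array but wild-type day 0 replicate 3 (adjusted p 0.0651 to 0.138). AT1G25230 and AT5G10210 were called higher on day 6, whereas AT1G23160, AT2G43140 and SBT1.3 had no call on that day. Of the photosynthesis, plastid-encoded, NMD target and uORF lists, 0 members were called in this test of the days by limma.

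**Figure D5:**
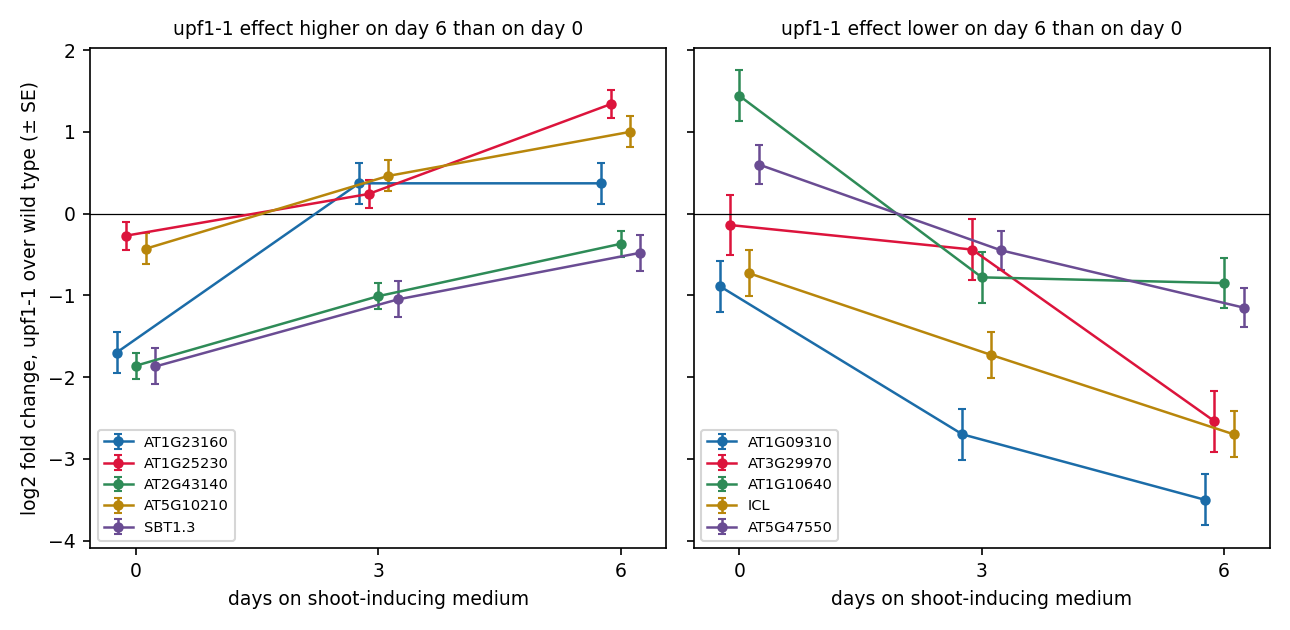
Log2 fold change of upf1-1 over wild type (y axis, error bars are the SE of the fit, equal on the 3 days) on days 0, 3 and 6 of shoot-inducing medium (x axis) for the 5 genes whose effect was most above (left) and the 5 whose effect was most below (right) that of day 0. AT1G09310 reaches -3.50 and AT1G25230 1.34 on day 6.

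The UPF3 mutant upf3-1 was measured on the same day, and both mutants were set against the same 3 wild-type arrays, so their differences from the wild type are not independent. In upf3-1, 2439 genes (18.4%) were called against the wild type, 1302 (9.8%) higher and 1137 (8.56%) lower. A direct test of upf1-1 over upf3-1 called 298 genes (2.24%), 131 (0.986%) higher and 167 (1.26%) lower in upf1-1. At least 2-fold differences were called for 17 (0.128%), 5 higher (0.0376%) and 12 lower (0.0903%). The count was 97 with those 6 arrays alone, 147 without upf1-1 replicate 2, and 133 and 168 without upf3-1 replicates 2 and 3. UPF3 differed most, at 9.54, 9.45 and 9.57 in upf1-1 against 5.96, 5.96 and 5.70 in upf3-1, so that upf1-1 was above and upf3-1 (-3.12) below the wild type. AT5G45430 and AT1G36730, the reported NMD targets with the largest rise, were 1.71 and 1.44 higher than the wild type in upf1-1, and both were 1.81 higher in upf3-1. Of the reported NMD targets, 3 were called between the mutants: UPF3, AT1G36730 (-0.37, adjusted p = 0.00655) and AT5G40920 (-0.70, adjusted p = 0.0075). PRK was 1.32 higher in upf1-1 and 1.09 in upf3-1, and 0 photosynthesis, plastid-encoded or uORF genes differed between the mutants at the test's threshold.

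The strongest difference other than UPF3 was at QQS, a gene found only in Arabidopsis that affects starch content. It had 4.76, 4.73 and 4.29 in upf1-1 against 8.05, 7.59 and 7.37 in upf3-1, a difference of -3.08 (adjusted p = 5.97e-07). Against the wild type it was at 0.20 in upf1-1, without a call, and at 3.28 in upf3-1. AT1G09310, the largest fall in upf1-1 at -3.50, was at -0.47 in upf3-1, and the mutants differed by -3.03. AT5G12110 was at -1.62 in upf1-1 and 0.12 in upf3-1 (difference -1.73), and the pseudogene AT3G21020 at 1.40 and 3.20 (difference -1.80). AT5G52070 was 1.37 higher than the wild type in upf1-1 and 0.20 in upf3-1 (difference 1.17), while AT5G22860 (1.54) and AT1G29090 (1.24) differed between the mutants without a call in upf1-1 against the wild type. Calls of AT1G54020 (2.04) and AT3G48640 (-1.57) depended on single arrays: AT1G54020 was lost without any array but upf3-1 replicate 3 (adjusted p 0.0632 to 0.167), and AT3G48640 without upf3-1 replicates 2 (0.103) or 3 (0.0691).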

How the data were processed

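RNA from callus was hybridised to Affymetrix ATH1 arrays, 27 in all, of which 6 make up the comparison of upf1-1 with the wild type on day 6. The authors deposited log2 signals per probe set, made with RMA per the submitters' processing notes, whose version the sources used here do not give. RMA includes quantile normalization, so values are relative within 1 common distribution. Arrays have no read depth, and their number limits the precision.

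Of 22810 probe sets, 64 were controls. Probe sets with 1 gene symbol (13513) were used, those with several (503) or none (8730) were not. For 147 genes with more than 1 probe set, the brightest probe set by its average across the 27 arrays was kept, and 70 genes whose ID was not in the RefSeq table were left out, leaving 13285. Limma 3.58.1 (statmod 1.5.0, R 4.3.3) fitted 1 mean per group over all 27 arrays, with moderated variances and Benjamini-Hochberg adjustment over all genes, two-sided. The code was tested on simulated data. Alternatives were the 6 arrays alone, each array left out in turn, a replicate block, trend and robust moderation, dim genes left out, centring on reference genes or on poly-A spike-ins, all probe sets, and the series value table.

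Named genes were UPF3, the 10 highest and 10 lowest called genes without overlap of the arrays, up to 4 called members of each list (or the 2 with the smallest p), the 5 highest and lowest of the contrasts between days and mutants, and the 5 highest and lowest among genes with a mean of at least 10. Other list members named beside them were chosen after their values were seen. The members and lists were chosen with earlier results of these data known. Lists given by keyword were searched in gene symbols and synonyms only. Promoter sequences were not analysed here. The title of upf1-1 day 0 replicate 1 names the wild type, while its source and genotype labels name the mutant, which were followed.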

Additional observations from a re-analysis of the deposited data

Results flagged for a closer look

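The difference between the upf1-1 effect on day 6 and that on day 0 was tested as an interaction with limma, and 14 named genes passed its threshold. The effect was higher on day 6 by 2.07 on the log2 scale at AT1G23160, 1.60 at AT1G25230, 1.49 at AT2G43140, 1.44 at AT5G10210, 1.39 at SBT1.3 and 1.14 at SBT4.12. It was lower on day 6 at AT1G09310 (-2.61), AT3G29970 (-2.40), AT1G10640 (-2.29), ICL (-1.97), AT5G47550 (-1.76), BGLU24 (-1.60), AT5G01870 (-1.27) and UGT71B1 (-0.67). BGLU24 lost this call without any of 9 of the 12 arrays (adjusted p 0.0536 to 0.111) and UGT71B1 without any of 7 (0.0502 to 0.0876), while AT5G01870 and SBT4.12 kept it without each array. Groups of 3 arrays were not tested for single arrays that stand apart.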

How the results depend on the processing

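Of 2349 genes called on day 6, the 6 arrays alone gave 1495 (500 lower), poly-A centring 1097 (895 higher, 202 lower) and all probe sets 4388 (2508 higher, 1880 lower, 321 at least 2-fold). Reference-gene centring gave 2205, trend and robust moderation 2381 and dim genes left out 2487, and the series value table gave 2349. Leaving out each array gave 1720 to 2162 genes (1072 to 1275 higher, 648 to 907 lower, 148 to 185 at least 2-fold). Plastid-encoded genes called higher numbered 19, against 11 with the 6 arrays alone and 10 to 22 without single arrays. The day 6 minus day 0 contrast gave 30 to 64 genes, and day 6 minus day 3 gave 0 to 10. The upf1-1 over upf3-1 contrast gave 97 genes with its groups alone and 133 to 317 without single arrays. Fewer arrays give a less precise variance; apart from that the cause was not tested. No called value of a named gene changed sign.

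Whether the replicate numbers pair the samples is unclear. For replicates 1 to 3, deviations of same-numbered upf1-1 and wild-type arrays on day 6 correlated at 0.21, 0.04 and 0.14. The highest correlation with another number was 0.02, 0.10 and -0.07, which is lower for replicates 1 and 3 and higher for replicate 2. The main fit did not use the numbers. With the replicate block, 2210 genes were called (1321 higher, 889 lower), 83 for day 6 minus day 0, 0 for day 6 minus day 3 and 233 for upf1-1 over upf3-1, with 20 plastid-encoded genes higher. Dim signals limit what can be called: 213 of 5103 genes with a mean under 5 in both groups were called.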

Other observations

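Probe sets with no gene symbol listed also differed on day 6. Of 8730, limma called 1024 higher (11.7%) and 843 lower (9.66%) in upf1-1, of which 90 and 56 differed at least 2-fold. These counts are from the fit of all 22746 probe sets that are no controls, of which 2508 were called higher and 1880 lower. The probe set with the largest rise among them had 7.11, 7.40 and 7.57 in upf1-1 against 4.76, 4.93 and 4.35 in the wild type (log2 fold change 2.68, adjusted p = 4.92e-12). The one with the largest fall had 3.42, 3.93 and 5.57 in upf1-1 against 7.18, 7.67 and 7.67 in the wild type (-3.20, adjusted p = 9.09e-06). The groups of both do not overlap, and their genes are not named here.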
